A study of Drosophila melanogaster with 60 samples.

Results

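Cytosolic ribosomal protein genes encode the proteins of both ribosomal subunits, and 85 of the 13969 genes measured belonged to the family by their FlyBase symbol (RpL, RpS or RpLP followed by a number, S6 kinase genes left out). Of these, 48 encode proteins of the large subunit and 37 of the small subunit, and 13 lie on the X chromosome, 17 on 2L, 18 on 2R, 14 on 3L, 22 on 3R and 1 on chromosome 4 in the BDGP6.54 annotation. Another 8 genes with ribosomal protein names fell outside the symbol rule (sta, RpL37-1, RpL37-2, RpL7-like, RpLP0-like, RpL22-like, RpL24-like and RpS28-like). They are not counted as members, and some of them are given as partners of a member. A ribosome carries a fixed number of copies of nearly every one of its proteins, so cells tend to make the RNAs of the family in proportion, and loss of a copy of such a gene gives the slow-growing Minute flies. In insects, growth signals through the kinase TOR and the transcription factor Myc drive ribosome production. The fat body, the counterpart of liver and adipose tissue, is a secretory tissue that makes yolk and other blood proteins and therefore translates heavily in egg-laying females.

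RNA was sequenced from abdominal fat tissue left attached to the epidermis once gut, ovaries and Malpighian tubules had been dissected away. Each sample pooled 10 mated Drosophila melanogaster females about 3 days old. The groups were flies with the mutant clock allele Clk-Jrk in a w1118 background at 25 °C (12 samples), wild-type w1118 flies at 18 °C (24 samples, of which 22 were used) and wild-type w1118 flies at 25 °C (24 samples). All had 5 days of entrainment to 12 h of light and 12 h of dark on a diet of sucrose and yeast, and the mutant allele had been backcrossed 7 times to w1118. Clk encodes the activator of the circadian clock, and Clk-Jrk is a dominant allele with a premature stop codon, which an RNA level does not test. Wild-type flies were sampled every 2 h and Clk-Jrk flies every 4 h, in 2 replicate series that the study describes as independent samplings. The flies came from 2 incubators with opposite light schedules, and the labels do not say which incubator gave a sample. Times are zeitgeber times (ZT), with lights on at ZT 0 and off at ZT 12.

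A library held 10667764 to 28822277 estimated counts in Clk-Jrk, 4923858 to 25133564 in the 18 °C group and 5808864 to 46590109 in the 25 °C group. In replicate 1 of the 18 °C group, ZT 2 and ZT 20 carried the same values, and neither was used. The mean log2 CPM (counts scaled by library size with TMM factors) of the 16 fat tissue markers was between 8.39 and 11.1 in these libraries. No marker list of another tissue passed 7.80, the highest gut value, in any library. In wild type the fat marker mean differed by replicate series, at 8.94 ± 0.30 (SD, n = 10) in replicate 1 and 9.87 ± 0.26 (n = 12) in replicate 2 at 18 °C, and at 9.13 ± 0.46 and 10.1 ± 0.40 (n = 12 each) at 25 °C. It was 10.5 ± 0.24 and 10.8 ± 0.22 (n = 6 each) in Clk-Jrk. In whole tissue, fewer cells of a type and less RNA per cell cannot be told apart.

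The family made up a large share of the poly(A) RNA in each group. Summed over the 85 members, it held 24.8% ± 3.06 of all TPM (a level scaled for transcript length and library total) in Clk-Jrk (SD, n = 12), 25.8% ± 2.31 in wild type at 18 °C (n = 22) and 26.3% ± 2.49 in wild type at 25 °C (n = 24). The lowest, median and highest libraries held 20.05%, 25.1% and 30.1% in Clk-Jrk, 21.1%, 25.4% and 31.3% in wild type at 18 °C, and 22.4%, 25.9% and 33.1% in wild type at 25 °C, so the groups overlapped over most of their range. The large subunit accounted for 14.6% ± 1.83 of TPM in Clk-Jrk, 15.7% ± 1.24 in wild type at 18 °C and 15.8% ± 1.48 in wild type at 25 °C. The small subunit accounted for 10.2% ± 1.24, 10.1% ± 1.14 and 10.5% ± 1.07 in the same order. Genes outside the symbol rule are not in these sums. Among them, RpL37-1 averaged 2829 and 3098 TPM in replicates 1 and 2 of wild type at 25 °C. Most members sat in a narrow band of levels. A mean of at least 1000 TPM was found for 75 members in Clk-Jrk, 78 in wild type at 18 °C and 78 in wild type at 25 °C, and the median member stood at 3051 TPM in Clk-Jrk, 2873 TPM at 18 °C and 3021 TPM at 25 °C.

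**Figure D1:**
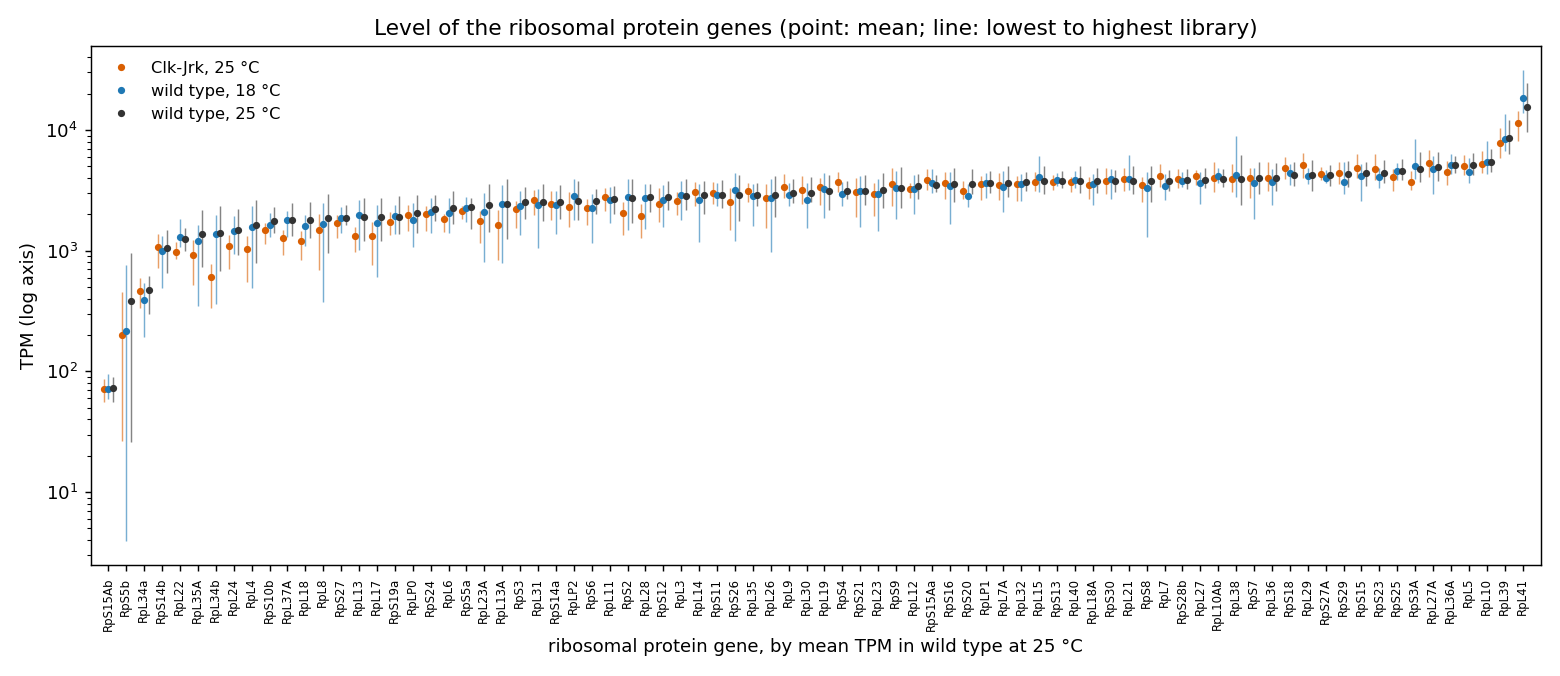
Level of 80 of the 81 members with a mean of at least 1 TPM in wild type at 25 °C, on a log axis, in Clk-Jrk (n = 12), wild type at 18 °C (n = 22) and wild type at 25 °C (n = 24). Points are means and lines run from the lowest to the highest library. Most members form a plateau above 1000 TPM, with RpL41 and RpL39 above it and RpS15Ab, RpS5b and RpL34a below it.

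At the top of the order stood RpL41, which encodes the smallest protein of the ribosome, and RpL39, a short protein of the exit tunnel through which the new peptide leaves. RpL41 averaged 11343 ± 1885 TPM in Clk-Jrk, 18470.2 ± 4934 TPM in wild type at 18 °C and 15539.5 ± 4360 TPM in wild type at 25 °C. RpL39 averaged 7742 ± 1428, 8345 ± 1544 and 8639.7 ± 1506 TPM in the same order. Both have very short transcripts, for which a length-scaled estimate is the least certain. RpL10, which joins the large subunit late in its assembly, came next in wild type at 25 °C, with 5204 ± 804 TPM in Clk-Jrk, 5435 ± 875 TPM at 18 °C and 5386 ± 654 TPM at 25 °C. It was followed at 25 °C by RpL5 (5114 ± 651 TPM), RpL36A (5102 ± 488 TPM) and RpL27A (4947 ± 705 TPM), and these neighbours differed by less than their SD. In Clk-Jrk the mean of RpL27A, 5363 ± 812 TPM, was above that of RpL10, by less than the SD of either. At the bottom, RpL10Aa, RpS28a, RpS10a and RpS19b had means under 1 TPM in each group and did not pass the filter on low counts, which left 81 members for the tests.

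The symbol rule holds several pairs of paralogues, and in most of them a single copy carried nearly all the RNA. RpL10Ab stood at 3983 ± 725 TPM in Clk-Jrk, 4144 ± 307 TPM at 18 °C and 3892 ± 360 TPM at 25 °C, whereas RpL10Aa had 1 estimated count over all 58 libraries used, in a library at 18 °C. RpS28b stood at 3935 ± 441, 3769.8 ± 318 and 3847 ± 469 TPM in the same order, and RpS28a had no count in Clk-Jrk or at 18 °C and 4 counts over the libraries at 25 °C. RpS10b averaged 1472, 1619 and 1768 TPM, and RpS10a 0.145, 0.273 and 0.254 TPM. RpS19a averaged 1738, 1949.9 and 1917 TPM, and RpS19b 0.254, 0.789 and 0.495 TPM. RpS10a and RpS19b are known for expression in the germ line, and their near absence here was shared by the 3 groups. Outside the symbol rule, RpL22-like, another germ-line paralogue, averaged 0.0218 TPM in Clk-Jrk, 0.00198 TPM at 18 °C and 0.0141 TPM at 25 °C, against 973, 1311 and 1255 TPM for RpL22.

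**Figure D2:**
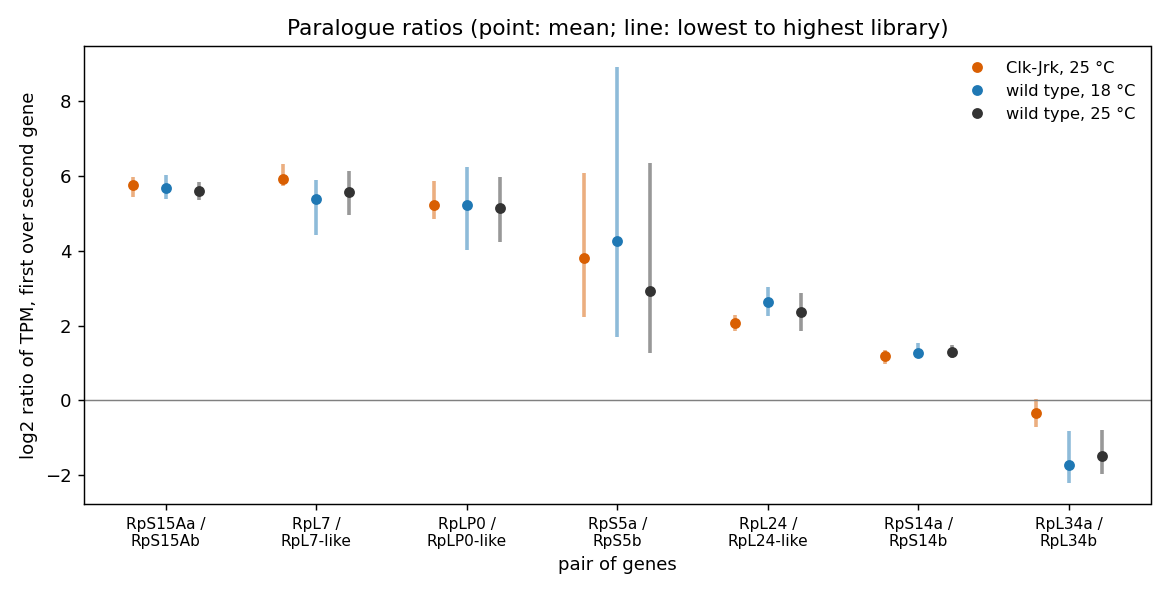
Log2 ratio of TPM (0.1 TPM added) between the genes of the 7 pairs in which both were measured above 1 TPM, in Clk-Jrk, wild type at 18 °C and wild type at 25 °C. Points are means over libraries and lines run from the lowest to the highest library. The RpL34a to RpL34b ratio in Clk-Jrk lies above that of every wild-type library, and the RpS5a to RpS5b ratio has the widest range.

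RpL34a and RpL34b were both transcribed at sizeable levels, and their balance differed between the genotypes. RpL34b had a lowest, median and highest level of 333, 615 and 781 TPM in Clk-Jrk, 362, 1599 and 1977 TPM in wild type at 18 °C, and 678, 1549.9 and 2336 TPM in wild type at 25 °C. RpL34a had 338, 455 and 596 TPM in Clk-Jrk, 192, 414 and 541 TPM at 18 °C, and 298, 480 and 618 TPM at 25 °C. The log2 ratio of RpL34a to RpL34b averaged -0.35 ± 0.23 in Clk-Jrk (range -0.71 to 0.02, n = 12), -1.72 ± 0.41 in wild type at 18 °C (-2.22 to -0.83, n = 22) and -1.503 ± 0.36 in wild type at 25 °C (-1.98 to -0.79, n = 24). The Clk-Jrk libraries did not overlap with either wild-type group. Within replicate series the ratio averaged -0.46 and -0.23 in replicates 1 and 2 of Clk-Jrk, -1.41 and -1.98 at 18 °C, and -1.19 and -1.82 at 25 °C.

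RpS5a and RpS5b showed the widest spread of any pair. RpS5a, a protein near the exit site for spent tRNA, averaged 2115 ± 177 TPM in Clk-Jrk, 2268 ± 298 TPM at 18 °C and 2293 ± 275 TPM at 25 °C. RpS5b, known in Drosophila for expression in the ovary, had a lowest, median and highest level of 26.7, 151 and 455 TPM in Clk-Jrk, 3.91, 188 and 768 TPM at 18 °C, and 26.0, 340 and 951 TPM at 25 °C. Over the 58 libraries RpS5b had the highest SD of the 81 members on the log2 scale, at 1.57, followed by RpL34b at 0.75. The ovary and germ line markers, 28 genes of which all were tested, also varied widely, with a mean log2 CPM of 1.75 to 5.90 in Clk-Jrk, -0.38 to 4.64 at 18 °C and 1.51 to 7.20 at 25 °C.

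In the remaining pairs the ratio of geometric means ranged less, with RpL24 and RpL24-like the most variable between groups. RpS15Aa stood at 3876 ± 490, 3664 ± 424 and 3527 ± 331 TPM in Clk-Jrk, wild type at 18 °C and wild type at 25 °C, and RpS15Ab at 71.6 ± 9.52, 71.2 ± 7.90 and 72.6 ± 8.96 TPM, with a ratio of 54.1, 51.4 and 48.7. RpS14a and RpS14b stood at a ratio of 2.27 in Clk-Jrk, 2.40 at 18 °C and 2.44 at 25 °C. The estimates of RpS14a and RpS14b, and of RpS15Aa and RpS15Ab, were mostly fractional (76.7% to 81.7% of values lay over 0.1 from a whole number), so reads were shared between near-identical copies and these 2 ratios are uncertain. Estimates of RpL24 were also mostly fractional (70% of values), so its ratio to RpL24-like is uncertain too. Of the partners outside the symbol rule, RpLP0-like and RpL24-like, which are related to ribosome assembly factors of yeast, ran far below the stalk protein RpLP0 (ratio 37.2, 37.2 and 35.1) and below RpL24 (ratio 4.16, 6.19 and 5.11). RpL7 exceeded RpL7-like by a ratio of 60.8, 42.1 and 47.9.

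The members moved together from library to library in each group. The SD of a member over libraries had a median of 0.27 in Clk-Jrk, 0.36 in wild type at 18 °C and 0.28 in wild type at 25 °C (log2 CPM). After the median of the other members was taken off each library, it was 0.11, 0.18 and 0.14, smaller for 81, 61 and 65 of the 81 members. The same step over all 9289 genes tested gave a smaller SD for 4123, 4531 and 4321 of them. That step could change little with TMM scaling, because the median of all genes hardly varied between libraries. Its SD was 0.02, 0.03 and 0.02, against 0.25, 0.34 and 0.26 for the median of the members. In wild type the movement includes the difference between replicate series described below. For the 73 mitochondrial ribosomal protein genes, set beside as another protein family of a ribosome, the median SD was 0.23, 0.28 and 0.21 before the step and 0.12, 0.19 and 0.17 after it.

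In wild type, the members also differed between the replicate series. The median member, centred on its mean over all libraries, stood at -0.42 ± 0.28 in replicate 1 (n = 10) and 0.14 ± 0.09 in replicate 2 (n = 12) at 18 °C, and at -0.17 ± 0.25 and 0.18 ± 0.12 (n = 12 each) at 25 °C. Replicate 2 was higher for 73 of 81 members at 18 °C and for 68 of 81 at 25 °C, by a median of 0.57 and 0.36. In Clk-Jrk it was higher for 2 of 81, with a median difference of -0.11. Of all 9289 genes tested, 4265 were higher in replicate 2 at 18 °C, 4172 at 25 °C and 4532 in Clk-Jrk. The steepest members included RpL4 and RpL8, both part of the core of the large subunit: RpL4 was higher in replicate 2 by 1.35 at 18 °C and 1.07 at 25 °C, and RpL8 by 1.501 and 0.96. RpL13A, RpL34b and RpL35A also differed by more than 0.9 in both wild-type groups. RpL38 and RpL41 went the other way, by -0.40 and -0.27 at 18 °C and -0.51 and -0.47 at 25 °C, as did RpL15, RpS3A, RpL39, RpL21, RpS29 and RpL5. The series also differed in other quantities: mitochondrially encoded RNA held 9.30% ± 2.17 of TPM in replicate 1 and 3.52% ± 0.28 in replicate 2 at 18 °C, and 7.95% ± 1.14 and 3.26% ± 0.22 at 25 °C, muscle markers had a mean log2 CPM of 7.00 ± 0.47 and 5.92 ± 0.35 at 18 °C and 5.66 ± 0.51 and 6.001 ± 0.48 at 25 °C, and fat markers are given above. The part of these quantities in the difference was not tested.

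**Figure D3:**
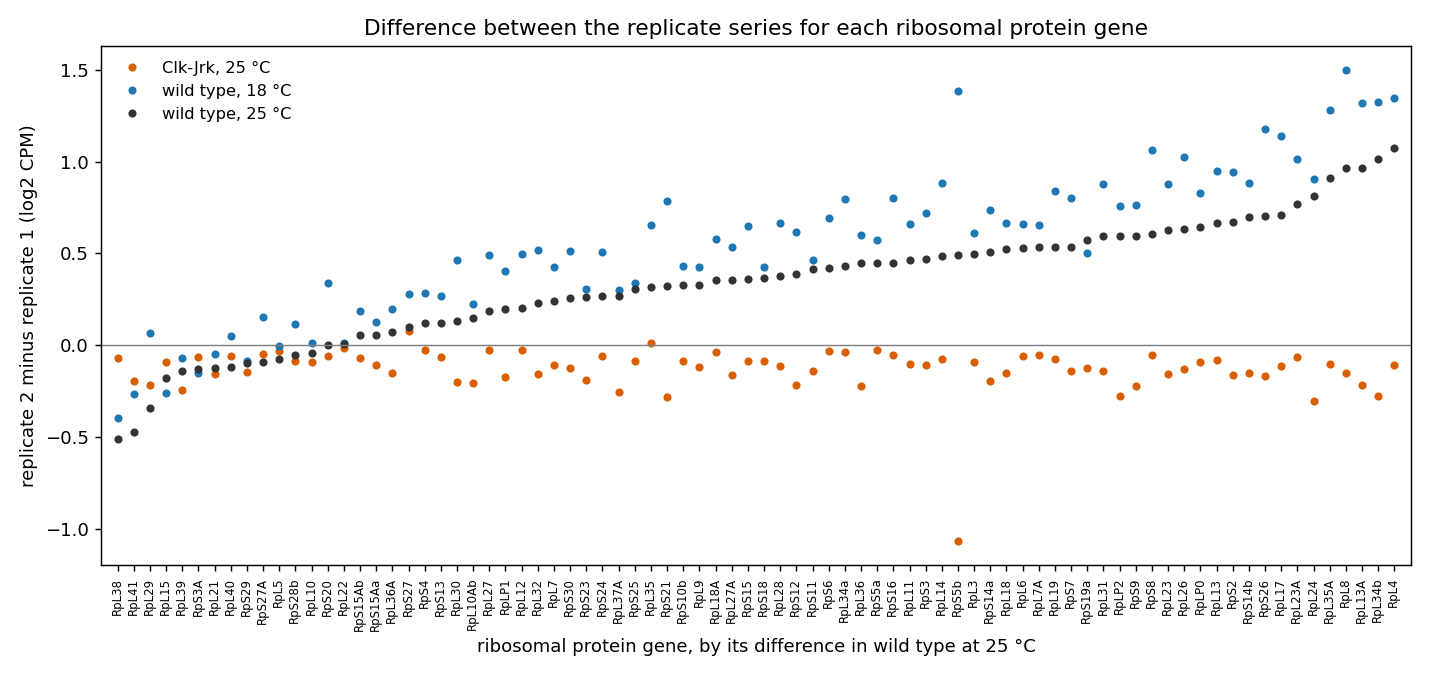
Difference between replicate 2 and replicate 1 in mean log2 CPM for 80 of the 81 members tested, in Clk-Jrk, wild type at 18 °C and wild type at 25 °C, ordered by the value at 25 °C. The median difference over the 81 was -0.11 in Clk-Jrk, 0.57 at 18 °C and 0.36 at 25 °C, and RpL38 and RpL41 lie at the lower end in both wild-type groups.

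Few members differed between the temperatures in wild type. At 18 °C, 4 of 81 were lower and 0 higher than at 25 °C (edgeR's quasi-likelihood test with Benjamini-Hochberg adjustment over 9289 genes, adjusted p under 0.05), against 28.7% of all genes lower, 22.7% higher and 51.4% in either direction. In total 7 members had an unadjusted p under 0.05 in either direction, against 5313 of the 9289 genes. DESeq2 called 1 member, RpL41, higher and 4 lower, against 25.3% of all genes higher and 27.9% lower. The median log2 fold change was -0.08 over the members and -0.04 over all genes tested.

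The 3 most significant were RpS29, RpS20 and RpL5. RpS29, a zinc-binding protein of the small subunit, had a lowest, median and highest log2 CPM of 10.07, 10.34 and 10.54 at 18 °C and of 10.24, 10.63 and 11.05 at 25 °C. Its log2 fold change was -0.30 ± 0.05 (SE, adjusted p = 5.68e-05 in edgeR), lower at 12 of 12 times. RpS20, in the head of the small subunit, had 9.36, 9.90 and 10.15 at 18 °C and 9.62, 10.22 and 10.64 at 25 °C, a log2 fold change of -0.38 ± 0.07 (edgeR adjusted p = 6.54e-05), also lower at 12 of 12 times and called in each replicate series alone. RpS20 shares exon sequence with CG17272 on the other strand in the annotation, and the sources used here do not give the strand setting of the counting. RpL5, which with RpL11 brings an rRNA to the large subunit, differed by -0.24 ± 0.05 (edgeR adjusted p = 0.000719), lower at 10 of 12 times. The ranges of the groups overlapped for each of these genes, and the differences were small beside the level.

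RpS5b was also lower at 18 °C, by -1.18 ± 0.38 (edgeR adjusted p = 0.0108), lower at 9 of 12 times. Markers of ovary and germ line were lower as well, 23 of 28 lower and 1 higher, with a mean log2 CPM of 1.95 ± 1.45 at 18 °C and 3.95 ± 1.46 at 25 °C. With that mean as a covariate the log2 fold change of RpS5b was 0.085 (edgeR adjusted p = 0.956), and RpS29, RpS20 and RpL5 had adjusted p of 0.00170, 0.0147 and 0.00471. The covariate itself differed between the temperatures, and with it 10.5% of all genes were called in either direction, against 51.4% without it. Markers of other tissues also differed at 18 °C: 8 of 15 muscle markers were higher and 0 lower (median 0.49), 8 of 11 haemocyte markers higher and 0 lower (0.45), 6 of 11 neuron and photoreceptor markers higher and 1 lower (1.14), and 4 of 8 epidermis and oenocyte markers higher and 0 lower (0.57). Of 16 fat tissue markers 4 were higher and 3 lower (-0.01), of 15 gut markers 1 higher and 0 lower (0.01), and of 8 Malpighian tubule markers 1 higher and 3 lower (-0.28). The part of other tissues in the results at 18 °C was not tested. The rule also named RpL34a (-0.30, edgeR adjusted p = 0.0619), RpS6, the target of S6 kinase (-0.22, adjusted p = 0.144), RpL35A (-0.21, adjusted p = 0.441) and RpLP0 (-0.20, adjusted p = 0.233) at the lower end. At the upper end, RpL41 (0.19), RpS26 (0.15) and the stalk protein RpLP2 (0.12) had edgeR adjusted p of 0.0954, 0.527 and 0.457, and RpL13, RpL19, RpL10Ab, RpL15 and RpL38 lay between 0.06 and 0.07.

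The replicate series differed in this comparison, with a median log2 fold change over the members of -0.21 in replicate 1 and -0.03 in replicate 2. Of 73 mitochondrial ribosomal protein genes 37 were lower and 0 higher at 18 °C, with a median of -0.18, or -0.28 in replicate 1 and -0.11 in replicate 2. Among them mRpL53 differed by -0.46 ± 0.06 (edgeR adjusted p = 2.12e-07) and mRpL37 by -0.41 ± 0.06 (adjusted p = 1.61e-06). Of 46 ribosome biogenesis genes 18 were lower and 3 higher, and of 25 translation initiation factors 7 were lower and 2 higher. Of 10 elongation and release factors 3 were lower and 1 higher. Of 34 genes of TOR, Myc and ribosome stress signalling 8 were lower and 6 higher.

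In Clk-Jrk flies, relative to wild type at 25 °C at the same 6 times, more members were higher than lower, but their number depended on how libraries were scaled. With TMM scaling, 24 of 81 were higher and 1 lower (edgeR's quasi-likelihood test, adjusted p under 0.05), against 18.3% of all genes higher, 20.8% lower and 39.1% in either direction. Scaled by total count, 3 were higher and 7 lower, against 6.37% of all genes higher and 37.5% lower. On log2(TPM + 1) with limma 3 were higher and 9 lower, against 5.59% and 37.6% of all genes. The total-count scaling moved the median log2 fold change of all genes by -0.28. The median member stood at 0.22 with TMM and -0.05 with total counts, and relative to the median of all genes at 0.27 and 0.28. The wild-type libraries at 25 °C served as controls in both level comparisons.

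**Figure D4:**
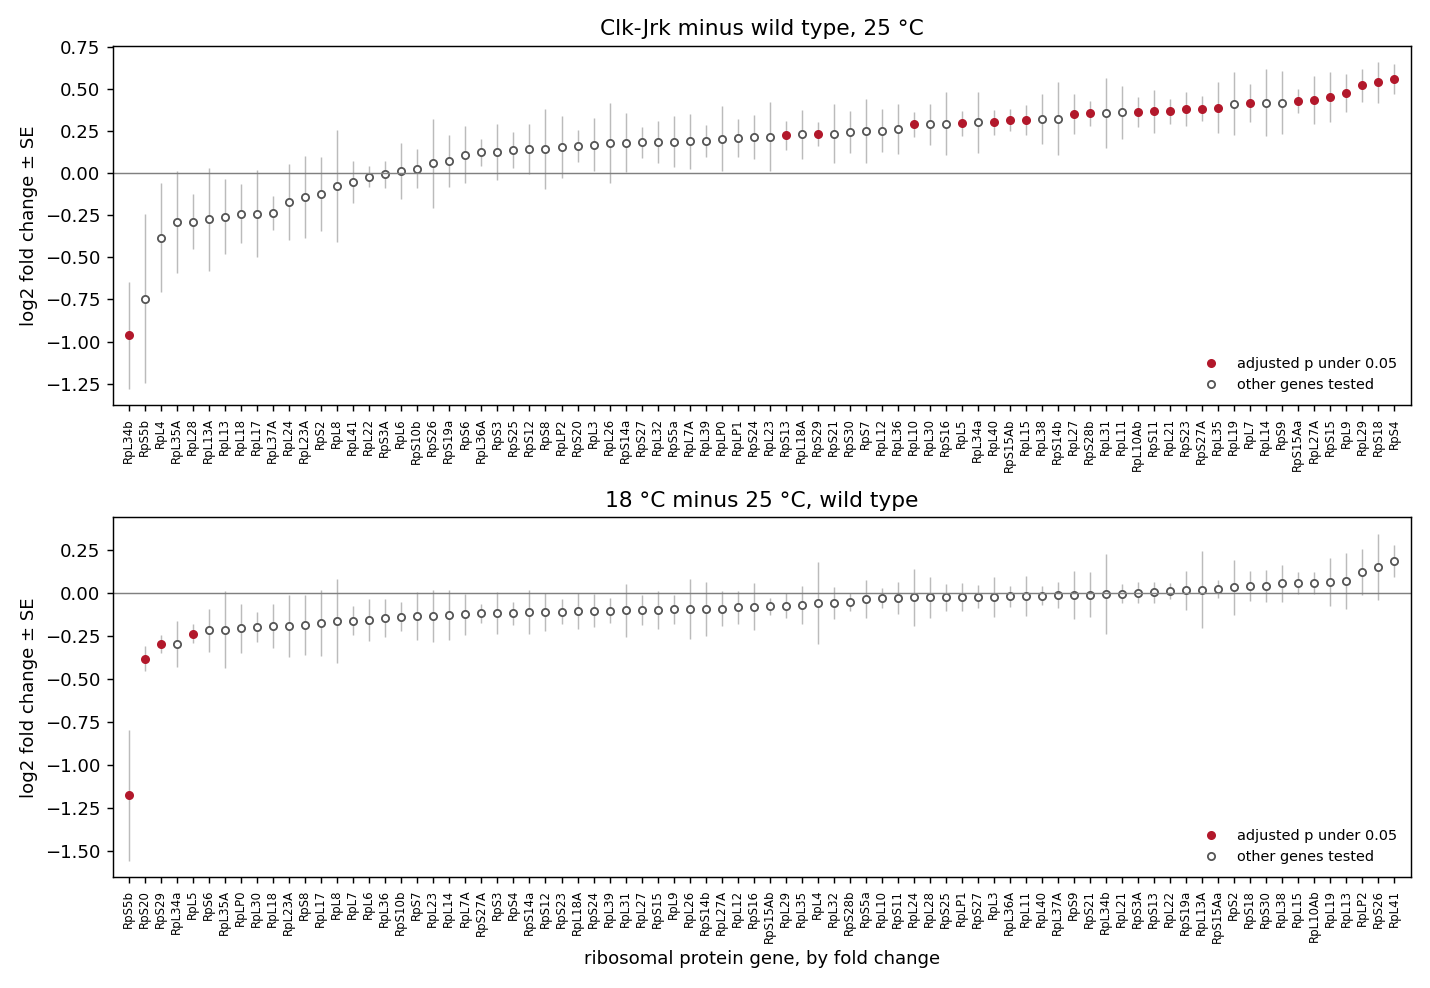
Log2 fold change ± SE (edgeR, TMM scaling) of 80 of the 81 members, for Clk-Jrk relative to wild type at 25 °C (12 and 12 libraries) and for wild type at 18 °C relative to 25 °C (22 and 24 libraries). Filled points have an adjusted p under 0.05: 23 of the 24 higher and the 1 lower in Clk-Jrk, where total-count scaling gives 3 higher and 7 lower over the 81, and 0 higher and 4 lower at 18 °C. With total-count scaling 6.37% of all genes were higher and 37.5% lower in Clk-Jrk.

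RpS4, a small-subunit protein, had the highest fold change. Its lowest, median and highest log2 CPM were 11.30, 11.66 and 12.17 in Clk-Jrk and 10.87, 11.18 and 11.28 in wild type, and the 2 ranges did not overlap. The log2 fold change was 0.56 ± 0.09 (SE, edgeR adjusted p = 1.71e-05), higher at 6 of 6 times, and 0.28 (adjusted p = 0.00530) with total counts. RpS18, in the head of the small subunit, had 10.68, 11.03 and 11.50 in Clk-Jrk and 10.13, 10.55 and 10.79 in wild type, a log2 fold change of 0.54 ± 0.12 (edgeR adjusted p = 0.000640). RpL9, of the large subunit, differed by 0.47 ± 0.11 (edgeR adjusted p = 0.00123). RpS4, RpS18 and RpL9 were the 3 members also called higher with total counts and on log2(TPM + 1).

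RpS4, RpS18 and RpS15Aa were also called in each replicate series alone. RpS15Aa differed by 0.43 ± 0.07 (edgeR adjusted p = 2.39e-05) with TMM and by 0.16 (adjusted p = 0.111) with total counts. RpL29, of the large subunit, differed by 0.52 ± 0.10 (edgeR adjusted p = 0.000103), and RpS15 and RpL27A by 0.45 and 0.43 (adjusted p = 0.0167 and 0.0160). The ubiquitin fusion genes RpS27A and RpL40 were among the 24, as was RpL5, all 3 chosen for mention after their values were seen. Estimates of RpS27A and RpL40 were mostly fractional (71.7% and 85% of values over 0.1 from a whole number), so their levels are less certain. RpS27A also shares exon sequence with Ip259 on the same strand. The 24 were positive in both replicate series, and 19 of them at all 6 times. Leaving out ZT 22 left 13 higher, each among the 24, against 13.8% of all genes higher. Replicate 2 alone gave 12 higher and 17 lower, against 16.9% of all genes higher and 17.1% lower. Replicate 1 alone gave 20 higher and 0 lower, against 13.2% and 13.8% of all genes. The median member stood at 0.37 in replicate 1 and -0.03 in replicate 2.

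RpL34b was the 1 member called lower. Its lowest, median and highest log2 CPM were 7.74, 8.36 and 8.91 in Clk-Jrk and 8.22, 9.37 and 9.86 in wild type at the same times. The log2 fold change was -0.96 ± 0.32 (SE, edgeR adjusted p = 0.0168), lower at 6 of 6 times. Its partner RpL34a did not pass the test. The difference lay mostly in replicate 2, at -1.56 (adjusted p = 2.78e-07), with -0.35 (adjusted p = 0.425) in replicate 1. With total counts it was -1.22 (adjusted p = 0.000895). The members next in order did not pass the test: RpS5b at -0.75 ± 0.50 (edgeR adjusted p = 0.246), RpL4 at -0.38 ± 0.32 (adjusted p = 0.361), RpL35A at -0.29, RpL28 at -0.29, RpL13A at -0.27, RpL13 at -0.26 and RpL18 at -0.24. In replicate 2 alone these other members, apart from RpS5b, were among the 17 lower.

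Other genes of the pathway were counted in the same comparison. Of 73 mitochondrial ribosomal protein genes 23 were higher and 1 lower, with a median log2 fold change of 0.22, which is that of the cytosolic members. Of 46 ribosome biogenesis genes 1 was higher and 1 lower, of 25 initiation factors 5 higher and 3 lower, and of 10 elongation and release factors 1 higher and 1 lower. The 34 genes of TOR, Myc and ribosome stress signalling had 4 higher and 14 lower. Among them foxo, the insulin-regulated transcription factor, differed by -0.79 ± 0.12 (edgeR adjusted p = 4.24e-06), larp, an RNA-binding protein related to the vertebrate regulator of ribosomal protein mRNAs, by -0.85 ± 0.13 (adjusted p = 4.30e-06), and REPTOR, a transcription factor repressed by TOR, by -1.08 ± 0.16 (adjusted p = 5.25e-06). Myc, chosen after its values were seen, averaged 2.21 ± 1.64 TPM in Clk-Jrk and 7.49 ± 1.61 TPM in wild type (SD, n = 12 each), a log2 fold change of -1.67 ± 0.25 (adjusted p = 6.52e-06). The poly(A)-binding protein gene pAbp, of the elongation list, differed by -0.81 ± 0.11 (adjusted p = 1.09e-06) and the helicase cofactor eIF4H1 by -1.03 ± 0.14 (adjusted p = 1.22e-06). Of 16 fat tissue markers 6 were higher and 1 lower (median 0.47), and of 15 muscle markers 0 were higher and 1 lower (-0.39). Of 11 haemocyte markers 5 were higher and 1 lower (0.40), and of 8 epidermis and oenocyte markers 3 higher and 1 lower (0.33). Ovary and germ line markers had 3 of 28 higher and 6 lower (-0.39), and neuron and photoreceptor markers 0 of 11 higher and 5 lower (-0.26). Malpighian tubule markers had 1 of 8 higher and 3 lower (-0.39), and gut markers 1 of 15 higher and 2 lower (-2.57). The part of these tissues in the results was not tested.

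No member passed the test for a 24 h rhythm in any of the 3 groups. The test fits a 24 h cosine wave, and 0 of 81 members had an adjusted p under 0.05 in Clk-Jrk, at 18 °C or at 25 °C, against 0% of all genes in Clk-Jrk, 1.94% at 18 °C and 0.398% at 25 °C (edgeR). DESeq2 called 26 members in Clk-Jrk (1.83% of all genes), 0 at 18 °C (5.54%) and 0 at 25 °C (1.11%). At an unadjusted p under 0.05, edgeR gave 75 of 81 members in Clk-Jrk (15.4% of all genes), 0 of 81 at 18 °C (15.3%) and 0 of 81 at 25 °C (8.95%). The lowest edgeR adjusted p over the members was 0.302 in Clk-Jrk, 0.551 at 18 °C and 0.586 at 25 °C.

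**Figure D5:**
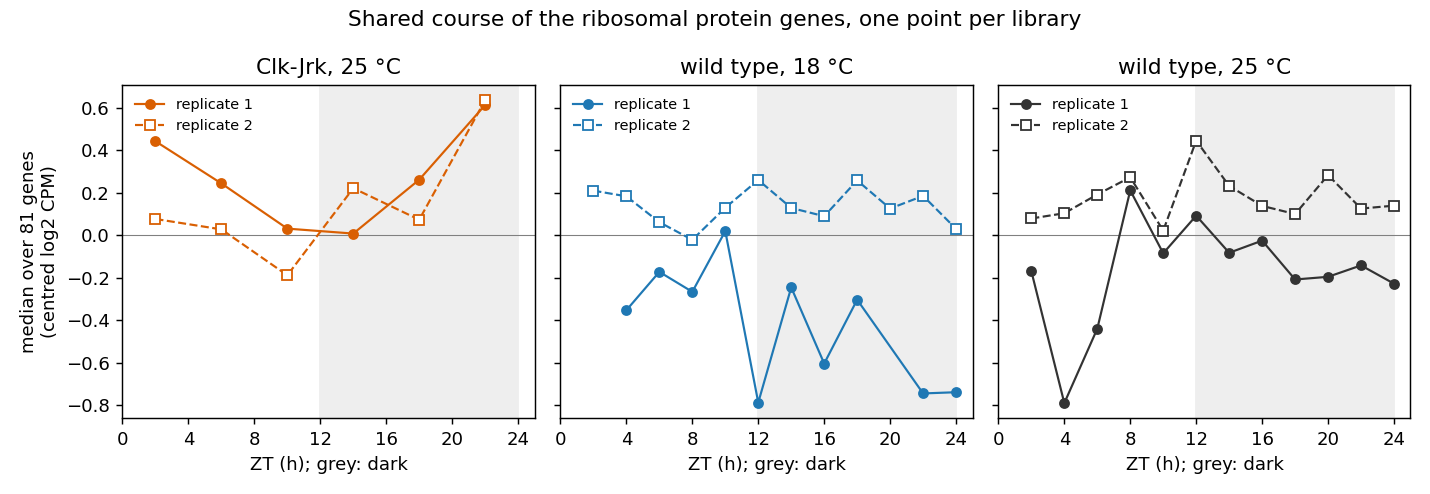
Median over the 81 members of centred log2 CPM in each library against ZT, in Clk-Jrk, wild type at 18 °C and wild type at 25 °C. Lines join the libraries of a replicate series, and grey marks the dark phase. Both Clk-Jrk series are highest at ZT 22, at 0.61 and 0.64, and in wild type replicate 1 lies below replicate 2 at each time sampled in both.

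The Clk-Jrk course had the same shape in most members. The median member stood at 0.26 at ZT 2, 0.14 at ZT 6, -0.08 at ZT 10, 0.12 at ZT 14, 0.17 at ZT 18 and 0.63 at ZT 22 (means of 2 libraries). At ZT 22 the 2 libraries were at 0.61 and 0.64, the highest of each series. The cosine of the median had an amplitude of 0.27 ± 0.07 (SE) and a peak at ZT 22.5 ± 1.03 h. Fitted peaks of single members fell between ZT 18 and 24 for 64 of 81 and between ZT 0 and 6 for the other 17. These peaks are not independent, because the members moved together between libraries. The shape rests on few libraries. Without ZT 22, 15 members had an unadjusted p under 0.05, against 448 of all 9289 genes. The number was 9 with replicate 2 alone (492 of all genes), 69 with replicate 1 alone (1308) and 25 with total counts (1480). The Clk-Jrk library of replicate 2 at ZT 22 also had the lowest share of mitochondrially encoded RNA, at 0.505% of TPM. Without this library the number of members was 43, against 934 of all genes. The same library was the only one of Clk-Jrk among the 6 of all groups that an alternative fit left out.

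The members with the smallest p in Clk-Jrk peaked late in the night. RpL13A had a log2 CPM of 9.70 at ZT 2, 9.49 at ZT 6, 9.53 at ZT 10, 10.01 at ZT 14, 10.14 at ZT 18 and 10.44 at ZT 22 (means of 2 libraries). Its amplitude was 0.45 ± 0.10 (SE), with a peak at ZT 19.5 ± 0.87 h (edgeR p = 0.00289, adjusted p = 0.302; DESeq2 adjusted p = 0.0176). RpL8 had an amplitude of 0.50 ± 0.12 and a peak at ZT 19.5 ± 0.88 h, and RpL23A, RpS26, RpL35A and RpL4 had amplitudes of 0.36, 0.41, 0.42 and 0.43 with peaks from ZT 19.3 to 20.4. RpL36A, whose p was the smallest for a difference in rhythm, peaked later, at ZT 0.849 ± 0.86 h, and its amplitude was 0.32 ± 0.07. This gene had a log2 CPM of 10.69 at ZT 2 and 10.78 at ZT 22, against 10.16 at ZT 10 and 10.24 at ZT 14. RpL21, RpL15, RpL5 and RpL10 also peaked between ZT 0.77 and 1.28.

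In wild type the courses were flatter. At 25 °C the median member had an amplitude of 0.13 ± 0.07 and a peak at ZT 13.6 ± 2.23 h, and 78 of 81 members had a fitted peak between ZT 12 and 18. Because the members moved together between libraries, their fitted peaks are not independent of each other. At 18 °C the amplitude was 0.05 ± 0.11, which is less than its SE, and fitted peaks were spread over the day, with 13 members in ZT 0 to 6, 45 in ZT 6 to 12, 5 in ZT 12 to 18 and 18 in ZT 18 to 24. With a term for the replicate series the amplitude of the median was 0.08 ± 0.06 at 18 °C and 0.13 ± 0.05 at 25 °C. The members of smallest p were RpL36A (edgeR p = 0.0802, adjusted p = 0.586), RpS28b, RpL40, RpS15Aa, RpL22 and RpS20 at 25 °C, with amplitudes of 0.11 to 0.14, and RpL22 (edgeR p = 0.177, adjusted p = 0.551), RpL10, RpL21, RpL38, RpS15Aa and RpL41 at 18 °C, with amplitudes of 0.08 to 0.13. Differences in rhythm were tested themselves. Between Clk-Jrk and wild type at the same times 0 of 81 members passed in edgeR (0% of all genes), 15 had an unadjusted p under 0.05 (9.71% of all genes), and DESeq2 called 1, RpL36A (adjusted p = 0.0241; 0.226% of all genes). RpL36A was followed in order of edgeR p by RpL21, RpS15Aa, RpL40, RpL5 and RpS29, with adjusted p of 0.402 for RpL36A and 0.46 for the other 5. Between 18 °C and 25 °C 0 members passed in edgeR (0.118% of all genes) or DESeq2 (0.388%) and 0 had an unadjusted p under 0.05 (14%), and RpL22, RpL36A, RpS15Aa, RpL39, RpL37A and RpL21 had the smallest p, with adjusted p from 0.370 to 0.542.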

How the data were processed

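Per the submitters' processing notes, the authors ran kallisto 0.46.2. For each group they deposited a gene table of estimated counts, without scaling between libraries, and one of TPM, scaled for transcript length and library total. The sources used here do not give the transcriptome release or strand setting. Within 0.001 of a whole number lay 80.5% of nonzero values in the tables of counts.

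Symbols were matched for 13949 of 13969 genes with the BDGP6.54 annotation, which also gave the overlap of 19 members with exons of another gene. The members, gene lists, naming rule and tests were chosen with earlier results of these data known. Estimated counts were rounded and genes kept with filterByExpr of edgeR, which left 9289. The quasi-likelihood test of edgeR 4.0.16, run in R 4.3.3 with TMM scaling, was used throughout, and calls had a Benjamini-Hochberg adjusted p under 0.05. For levels, each group and ZT had its own mean, and contrasts averaged over the shared ZT. Rhythm used a cosine and a sine of 24 h, and rhythm differences their interactions. Log2 CPM has a prior count of 2. Precision comes from the spread between libraries, which includes counting error. Named members were both genes of each paralogue pair, the 8 highest and 8 lowest fold changes per level comparison, the 6 smallest p per rhythm test, the 6 highest and 6 lowest levels, and up to 3 genes of each other list. The values of 1 member are not reported here and it is not drawn. The fits were tested on simulated data. Alternatives used DESeq2 1.42.0 and limma 3.58.1 among others. Python 3.11.15 made tables and plots.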

Additional observations from a re-analysis of the deposited data

How the results depend on the processing

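Between 18 °C and 25 °C, the 4 lower members were 7 with total counts and 8 with both identical columns kept, and the 0 higher members were 1 with DESeq2 and 1 with both identical columns kept, RpL41 each time. Of all genes, 23.7% were lower with total counts and 29.8% with both columns kept. Higher were 25.3% of all genes with DESeq2 and 26% with both columns kept. Leaving out a replicate series or a ZT gave 0 to 2 higher. In Clk-Jrk, the 24 higher members were 3 with total counts and 3 on log2(TPM + 1) or log2(TPM + 0.1) with limma, and 12 to 25 with a series or ZT left out. The 1 lower member was 0 at an adjusted p under 0.01, 2 with RLE size factors, DESeq2 or a mean log2 CPM of at least 3, 7 with total counts, 9 and 10 on log2(TPM + 1) and log2(TPM + 0.1), and 0 to 17 with a series or ZT left out. Total counts called 6.37% of all genes higher and 37.5% lower in Clk-Jrk. The shares were 5.59% and 37.6% on log2(TPM + 1), and 5.68% and 39.7% on log2(TPM + 0.1). DESeq2 called 26 rhythmic members in Clk-Jrk (1.83% of all genes) and 1 difference in rhythm (0.226%). As summed CPM with TMM factors the family held 13.1% in Clk-Jrk, 10.9% at 18 °C and 11.6% at 25 °C, and as a share of estimated counts without them 11.2%, 11.3% and 11.9%. Clk-Jrk was thus highest with TMM factors and lowest without them, as by TPM.

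Same-numbered libraries correlated over 0.1 in 8 of 10 pairs between the temperatures (-0.19 to 0.55) and 1 of 6 between the genotypes (-0.59 to 0.21), so the numbers were not taken to pair samples. A replicate block gave 1 higher and 12 lower at 18 °C, against 25.5% of all genes higher and 32.6% lower. In Clk-Jrk it gave 37 higher and 2 lower, against 21.7% and 23.4% of all genes.

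Signs changed at 18 °C with the ovary covariate for RpS5b (0.085), RpL10Ab (-0.00298) and RpL15 (-0.053), and with both identical columns kept for RpL13 (-0.023) and RpL19 (-0.011). With a series or ZT left out, values at 18 °C ran from -0.148 to 0.109 for RpL13, -0.154 to 0.122 for RpL19 and -0.213 to 0.222 for RpS26. In Clk-Jrk they ran from -0.636 to 0.070 for RpL13, -0.825 to 0.273 for RpL13A, -0.601 to 0.026 for RpL18, -0.752 to 0.164 for RpL35A, -0.905 to 0.198 for RpL4 and -1.58 to 0.603 for RpS5b, each positive in replicate 1 alone. The cause was not tested. Of these, RpS5b at 18 °C had passed the test. Levels under 1 TPM rest on few counts, and the rhythm tests in Clk-Jrk on 12 libraries.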
